A study of Mus musculus with 4 samples.

Results

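The amino acid transporters described here were the genes of 7 solute carrier families, chosen by gene symbol: Slc1a1 to Slc1a7, Slc3a1, Slc3a2, and every numbered Slc6a, Slc7a, Slc36a, Slc38a and Slc43a gene. Of the 16051 genes in the table, 50 carried such a symbol. Transcripts were measured by mRNA sequencing in 3T3-L1 cells, a mouse embryonic fibroblast line (strain NIH SWISS in the labels) that can be differentiated into fat cells. The 2 control libraries, labelled untreat and described in the study's methods as DMSO-treated, and the 2 risperidone libraries, from cells given 100 μM of this second-generation antipsychotic for 48 h, were all described in the study's methods as made from differentiated cells. Each library held RNA pooled from 3 cultures of 1 cell line, so the spread between the 2 libraries of a group was a spread between pools.

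The label of the cells was compared with defining markers. Of 10 adipocyte markers, only Fabp4, Lpl and Pparg passed the filter on low values. Plin1, which coats lipid droplets, had 9 and 14 counts in the control libraries and 1 in each risperidone library, and Adipoq, Cebpa, Cidec, Lep, Cfd and Slc2a4 were also at or near 0. These markers of mature fat cells thus went against the adipocyte label. Lpl, with 14999 and 15569 counts in the control libraries, Fabp4, with 1079 and 1360, and Pparg, with 388 and 345, did not. Several markers moved between the groups. Fabp4 had 492 and 586 counts in the risperidone libraries (log2 fold change -1.09, adjusted p = 1.64e-05) and Lpl had 12235 and 11967 (-0.24, adjusted p = 0.00154). Of 8 fibroblast markers, 7 had at least 10 counts in each library. Of these 7, Dlk1 (1.52), Thy1 (1.05) and Col1a1 (0.99) were higher on the log2 scale, Col3a1 (-0.96), Pdgfrb (-0.50) and Col1a2 (-0.16) were lower, and Pdgfra did not pass. The part of such marker changes in the transporter results was not tested. The libraries held 15883712 to 16374119 estimated counts, and 3 counts, taken as the limit that a count of 0 allows for counting error only, corresponded to 0.183 to 0.189 CPM, the count scaled to the total of the library. The second risperidone library stood apart: it held 300 genes at 10 counts or more and at 4 times the highest other library or more, 1.87% of the table. This share was 0.00623% and 0.0125% in the control libraries, and no gene met the rule in the first risperidone library. The summed level of 16 kidney markers was 6.17 and 5.54 CPM in the control libraries, 4.38 in the first risperidone library and 219 in the second, and 13 of the 16 were raised in that library alone.

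Amino acids cross the plasma membrane by uniporters, exchangers and sodium- or proton-coupled carriers, and most carriers accept several amino acids. The light chains of the Slc7 family, such as the leucine carrier LAT1 and the cystine-glutamate exchanger xCT, reach the cell surface as heterodimers with an Slc3 heavy chain. Glutamine taken up by one carrier can be exchanged for leucine by another, and cells adjust several carriers through the transcription factor ATF4 when amino acids are scarce. Some members of these families work on intracellular membranes, among them the lysosomal carriers encoded by Slc36a1, Slc38a7 and Slc38a9, and a few carry other substrates, such as the noradrenaline transporter Slc6a2 and the purine nucleobase transporter Slc43a3.

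The amino acid response element bound by ATF4 is written TGATGNAA. It is shown because the tested member that fell most holds 2 copies in the window of 250 bases before to 50 bases after a start. These are the bases before that start of Slc7a11 in GRCm38.p6, on the minus strand of chromosome 3 (chr3:50443614-50443733, RefSeq), with the 2 matches in capitals, the first on the coding strand and the second on the opposite strand:
Slc7a11: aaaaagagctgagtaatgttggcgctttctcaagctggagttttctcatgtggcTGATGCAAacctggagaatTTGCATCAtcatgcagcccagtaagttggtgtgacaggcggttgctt
The nearer match lay 47 to 40 bases before that start. This start of Slc7a11 lies inside the span of the gene (chr3:50364936-50499087) and not at its outer end. Slc1a4 held 1 match across its start, on the opposite strand (chr11:20332699-20332728, minus strand), again in capitals:
Slc1a4: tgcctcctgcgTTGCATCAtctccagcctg
On either strand the motif occurred in 4.51% of 27025 RefSeq genes with a window and in 3 of the 35 members that had one, the third being Slc7a7. A match is a run of letters and was not tested as a binding site, and 15 members had no window in the table.

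Of the 50 transporter transcripts, 22 had a mean of at least 1 FPKM (fragments per kilobase of transcript, scaled to the mapped fragments of the library, a level that can be compared between genes) and were tested, against 63.8% of all genes. Of these 22, 15 passed a threshold of 0.05 on the adjusted p (quasi-likelihood test of edgeR, Benjamini-Hochberg over all 10243 genes tested), beside 64.3% of all genes tested. Of the 15, 11 were lower and 4 were higher in the risperidone libraries, beside 32.2% lower and 32.1% higher over all genes tested. The median log2 fold change of the 22 was -0.19, beside 0.00044 over all genes tested. By limma on log2(FPKM + 1) 1 member was higher and 12 were lower, beside 2420 higher and 3975 lower of all genes tested. The median of all genes on that FPKM scale was -0.084. By limma on log2(TPM + 1), a scale on which the median of all genes was -0.22, 1 member was higher and 14 were lower. On that TPM scale 1536 of all genes tested were higher and 5292 lower. All values are relative to the total of a library, and in these bulk samples fewer cells of a type and less RNA per cell cannot be told apart. With the second risperidone library left out, 4 members were higher and 11 lower.

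Summed over the 50 members, the level was 809.6 and 817.9 FPKM in the control libraries and 661.1 and 675.0 FPKM in the risperidone libraries. The order of the members changed at the top. Slc38a2 led in the control libraries at 156.6 ± 0.354 FPKM (SD, n = 2), followed by Slc43a3 and Slc3a2. In the risperidone libraries Slc43a3 led at 113.5 ± 0.573 FPKM, followed by Slc3a2, Slc38a10 and Slc1a5, and Slc38a2 came after these. There Slc38a10 at 75.0 ± 0.552 and Slc1a5 at 70.7 ± 2.23 FPKM lay close together, and Slc1a5 and Slc38a2 at 69.7 ± 4.50 FPKM did not differ beyond their spread.

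**Figure D1:**
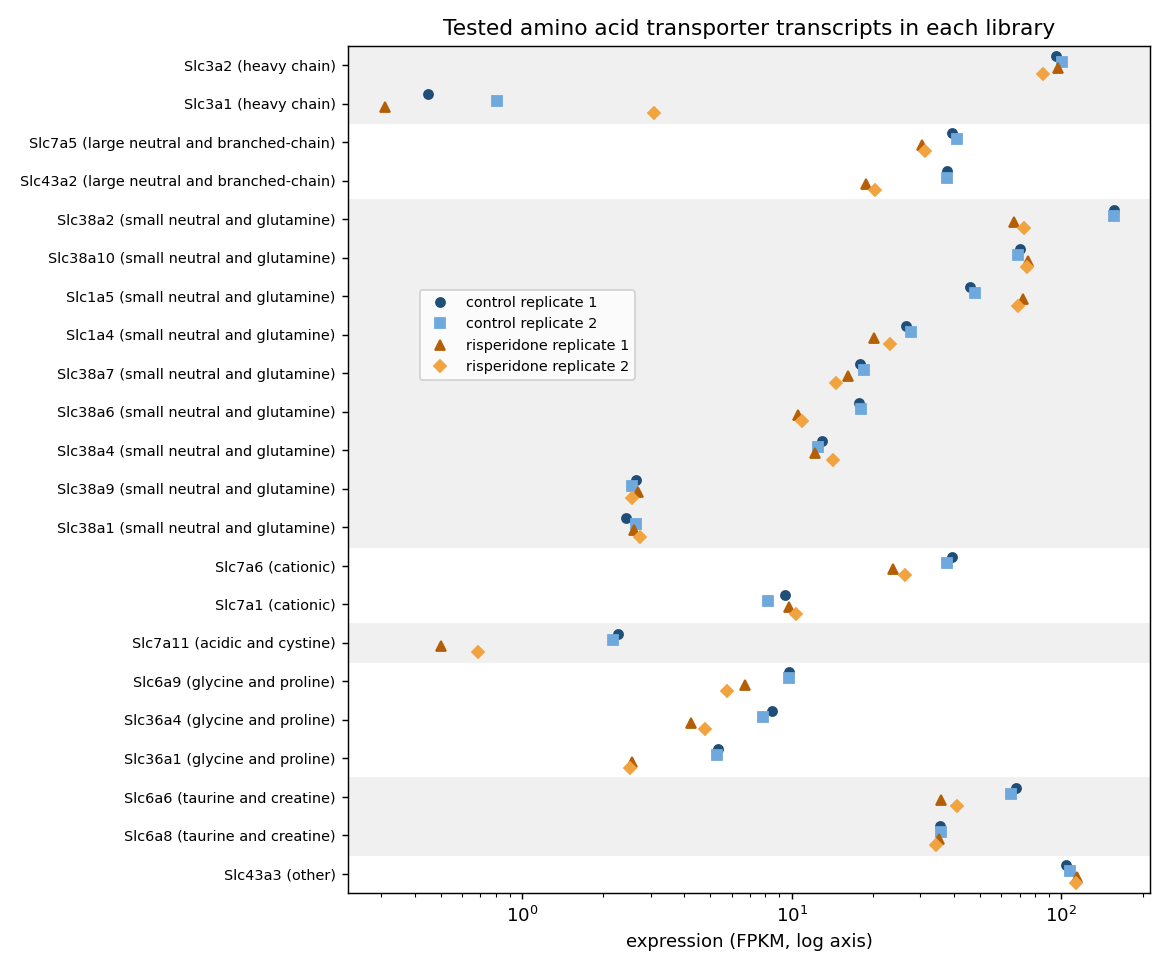
Expression of the 22 tested transporter transcripts in each library, in FPKM on a log axis, grouped by substrate (shaded bands) with 1 symbol per library and no error bars. Slc38a2 falls from 156.6 to 69.7 FPKM, Slc1a5 rises from 46.9 to 70.7 FPKM (group means), and the second risperidone library stands apart for Slc3a1.

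The heavy chains are the partners that carry Slc7 light chains to the surface. Slc3a2, which encodes 4F2hc (CD98) and pairs with LAT1, y+LAT2 and xCT, had 3389 and 3362 counts in the control libraries and 3301 and 2888 in the risperidone libraries. Both risperidone counts were below the control counts, but the levels in FPKM overlapped between the groups, and the log2 fold change was -0.03 (95% interval -0.16 to 0.10, adjusted p = 0.654), with a sign that turned to 0.06 without the second risperidone library. Slc3a2 passed as lower on the TPM scale (-0.24, adjusted p = 0.00463) and without the first risperidone library (-0.13, adjusted p = 0.0409). Slc3a1, which encodes rBAT, the heavy chain of the kidney cystine carrier, had 16 and 28.1 counts in the control libraries, 10.8 in the first risperidone library and 107 in the second. It passed the filter only through the latter, at 3.08 FPKM against 0.31 to 0.81 in the other libraries, and its log2 fold change of 1.51 (interval -0.08 to 3.11, adjusted p = 0.0880) became -0.90 without the second risperidone library. In the main fit neither heavy chain passed the threshold. With edgeR and the replicate numbers as a block, Slc3a1 passed as higher (1.39, adjusted p = 2.71e-05), again through the second risperidone library.

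Per unit of the heavy chain, the light chains Slc7a5, Slc7a6 and Slc7a11 were lower in both risperidone libraries. The ratio of Slc7a5 to Slc3a2 in FPKM was 0.411 and 0.408 in the control libraries against 0.312 and 0.366 in the risperidone libraries. For Slc7a6 the ratio was 0.411 and 0.376 against 0.244 and 0.309. For Slc7a11 it was 0.0238 and 0.0216 against 0.00513 and 0.00809. None of the 3 ratios overlapped between the groups, and they were not tested. Each of these light chains was itself called lower while Slc3a2 was not called, so the ratios repeat those calls. The share of such ratios without overlap over other genes was not counted.

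Both tested carriers of large neutral and branched-chain amino acids were lower, beside 32.2% of all genes tested. Slc7a5, which encodes LAT1 and brings leucine into the cell in exchange for other amino acids, had 2172 and 2200 counts in the control libraries and 1673 and 1688 in the risperidone libraries, so the groups did not overlap. The log2 fold change of Slc7a5 was -0.29 (SE 0.0478, adjusted p = 3.41e-04). Slc43a2, which encodes the uniporter LAT4, had 4058 and 3934 counts in the control libraries and 1969 and 2124 in the risperidone libraries. It fell by 0.87 on the log2 scale (SE 0.0513, adjusted p = 1.93e-07), from 37.7 ± 0.0919 to 19.6 ± 1.04 FPKM. In control libraries the 2 genes were at similar levels, 40.1 FPKM for Slc7a5, and in the risperidone libraries Slc7a5 was the higher of them at 30.8 ± 0.552 FPKM. The other 4 members of this group, Slc7a8, Slc43a1, Slc6a15 and Slc6a17, were not tested.

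Carriers of small neutral amino acids and glutamine formed the largest group, with 11 members, 9 of them tested, 2 higher and 3 lower. These were 22.2% and 33.3% of those tested, beside 32.1% higher and 32.2% lower over all genes tested. Slc38a2 (chr15:96687392-96699728 in GRCm38.p6) encodes SNAT2, a sodium-coupled carrier of alanine, serine and glutamine that is known to respond to amino acid supply. It had 11495 and 11193 counts in the control libraries and 4865 and 5244 in the risperidone libraries, and its log2 fold change was -1.07 (SE 0.0533, adjusted p = 7.42e-08). With Slc7a11 it was 1 of 2 members at least 2-fold lower, beside 3.91% of all genes tested. Slc38a2 was thus far apart between the groups, by more than the gap between the libraries of either group.

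Slc1a5 (chr7:16781334-16798274) encodes ASCT2, a sodium-dependent exchanger of glutamine, serine and other neutral amino acids, and it moved the other way. It had 1951 and 1991 counts in the control libraries and 3043 and 2843 in the risperidone libraries. Both risperidone libraries were above both control libraries, and the log2 fold change was 0.67 (SE 0.0506, adjusted p = 1.03e-06), from 46.9 ± 1.65 to 70.7 ± 2.23 FPKM. Its direction and its call held in every alternative that was run, over a range of 0.44 to 0.72. The ratio of Slc1a5 to Slc38a2 in FPKM was 0.293 and 0.306 in the control libraries and 1.09 and 0.947 in the risperidone libraries. The ratio of Slc1a5 to Slc7a5, the carrier that exchanges glutamine for leucine, was 1.16 and 1.17 in the control libraries and 2.37 and 2.21 in the risperidone libraries. The ratios did not overlap between the groups and were not tested. Slc1a5 was called higher and both Slc38a2 and Slc7a5 lower, so the ratios repeat those calls.

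The closest relative of Slc1a5 in the group, Slc1a4, which encodes the alanine and serine exchanger ASCT1, had 1645 and 1668 counts in the control libraries and 1242 and 1402 in the risperidone libraries. It was lower, with a log2 fold change of -0.23 (SE 0.0658, adjusted p = 0.00966), but the call was lost without the second control library (adjusted p = 0.0905). Slc38a6, a member of the SNAT family, had 799 and 795 counts against 473 and 486 in the risperidone libraries and fell by 0.64 on the log2 scale (SE 0.0573, adjusted p = 3.60e-06). The 2 libraries of each group nearly coincided for this gene.

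Slc38a10, also of the SNAT family, had 4489 and 4271 counts in the control libraries and 4801 and 4693 in the risperidone libraries. It was higher by 0.21 on the log2 scale (SE 0.0454, adjusted p = 0.00192), and on the TPM scale, where the median of all genes was itself -0.22, its value was -0.03. The call was also lost with limma on FPKM (adjusted p = 0.0599 and 0.0635) and after quantile normalization (0.0747). The remaining 4 tested members of the group did not pass the threshold. Slc38a7 and Slc38a9, which encode lysosomal carriers of glutamine and of arginine and other amino acids, had log2 fold changes of -0.15 (95% interval -0.31 to 0.0043) and 0.01 (interval -0.17 to 0.20). For Slc38a1, which encodes SNAT1, and Slc38a4, which encodes SNAT4, the value was 0.18 in each case (intervals -0.03 to 0.39 and 0.01 to 0.34, adjusted p = 0.112 and 0.0576), and with length offsets both passed as higher (0.30, adjusted p = 0.0164, and 0.24, adjusted p = 0.0115). Of these 4, Slc38a7 was the only gene whose groups did not overlap in FPKM. It passed as lower in 6 alternatives, among them library size only (-0.25, adjusted p = 0.0105), limma on log2(FPKM + 1) (-0.24, 0.0160), the TPM scale (-0.39, 8.52e-04) and the fit without the first risperidone library (-0.24, 0.00776).

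**Figure D2:**
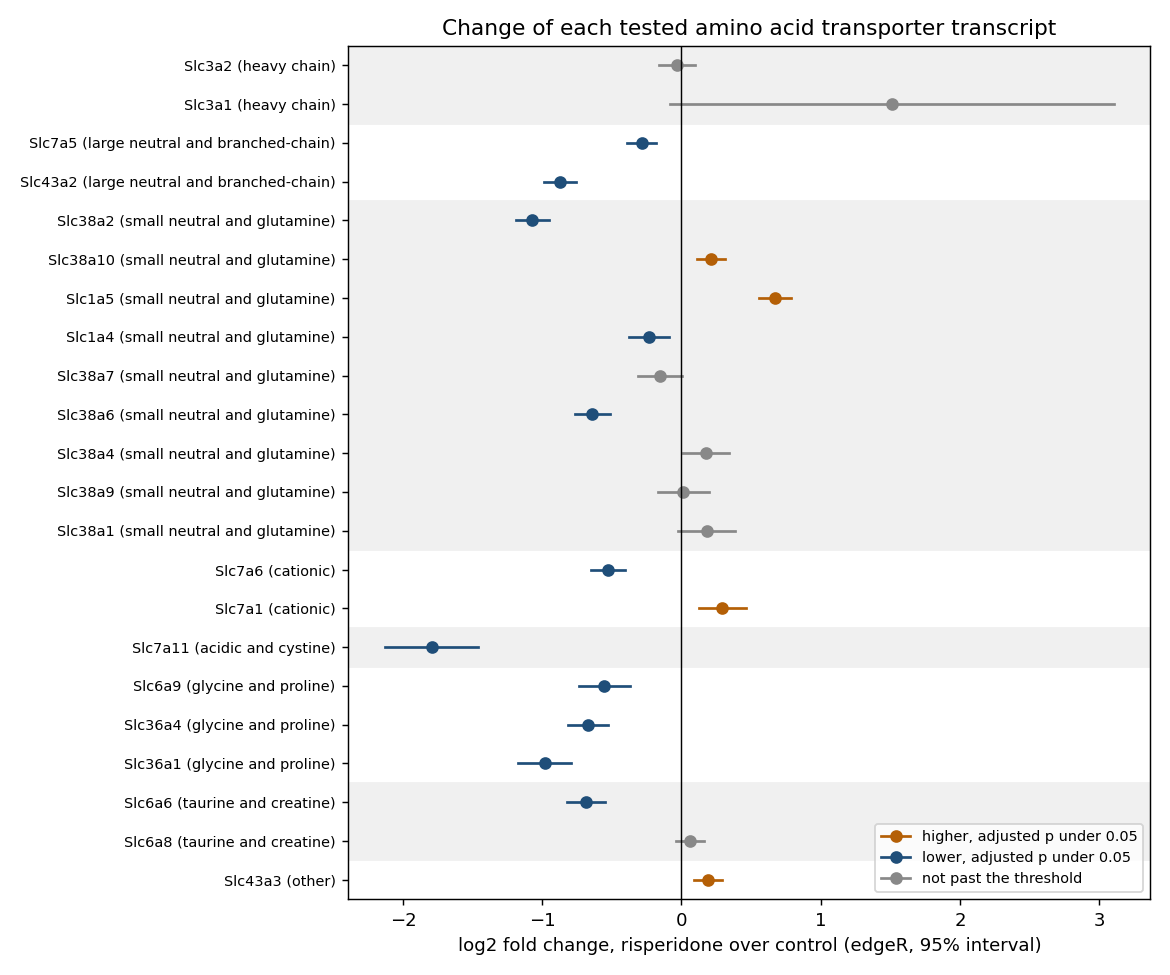
Log2 fold change of each tested transporter transcript, risperidone over control, with the 95% interval from edgeR; orange points are higher, blue points lower and grey points not past the threshold. The 11 blue points lie between -1.79 (Slc7a11) and -0.23 (Slc1a4), and of the 4 orange points only Slc1a5, at 0.67, is above 0.5.

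The tested cationic carriers went in opposite directions. Slc7a6 encodes y+LAT2, which exchanges arginine for glutamine with Slc3a2 as its heavy chain, and it had 2328 and 2166 counts in the control libraries and 1397 and 1524 in the risperidone libraries. It fell by 0.53 on the log2 scale (SE 0.0564, adjusted p = 1.32e-05). Slc7a1 encodes CAT1, the widespread arginine and lysine uniporter that needs no heavy chain. Its counts were 1083 and 910 in the control libraries and 1125 and 1162 in the risperidone libraries, and its log2 fold change was 0.29 (SE 0.0759, adjusted p = 0.00572). The gap between the groups was smaller than the gap between the 2 control libraries, and the call was lost without the second control library (0.19, adjusted p = 0.0810), with limma on FPKM (0.0892 and 0.0856) and on the TPM scale (0.05, 0.642).

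Among the carriers of acidic amino acids and cystine, 1 member was expressed above the filter, and it showed the largest fall of the 22. Slc7a11 (chr3:50364936-50499087) encodes xCT, which imports cystine in exchange for glutamate and so supplies cysteine for glutathione. It had 335 and 314 counts in the control libraries and 74.0 and 101 in the risperidone libraries, and its log2 fold change was -1.79 (SE 0.153, adjusted p = 2.44e-06). Its level was low, at 2.22 ± 0.0707 FPKM in the control libraries and 0.595 ± 0.134 FPKM in the risperidone libraries. Only the control libraries, at 2.27 and 2.17 FPKM, were above the limit of 1 FPKM, so Slc7a11 passed the filter through them. The risperidone libraries were both far below the control libraries, though they differed from each other by more than the control libraries did. On the log2(FPKM + 1) scale, which understates changes of low genes, the value was -1.02, and after quantile normalization it was -0.92.

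All 3 tested carriers of glycine and proline were lower, beside 32.2% of all genes tested. Slc36a1 encodes PAT1, a proton-coupled carrier of small amino acids found on lysosomes and the plasma membrane. It had 443 and 419 counts in the control libraries and 207 and 202 in the risperidone libraries, with a log2 fold change of -0.98 (SE 0.0865, adjusted p = 3.17e-06). Slc36a4, which encodes the related carrier PAT4, had 618 and 572 counts against 341 and 359 and fell by 0.67 on the log2 scale (SE 0.0658, adjusted p = 7.14e-06). Slc6a9 encodes the glycine transporter GlyT1, and it had 504 and 486 counts against 342 and 290. The log2 fold change of Slc6a9 was -0.55 (SE 0.0823, adjusted p = 1.46e-04). The groups did not overlap for any of the 3 genes, but the share of all genes without overlap was not counted.

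Of the carriers of organic osmolytes and creatine, Slc6a6 fell and Slc6a8 did not pass the threshold. Slc6a6 encodes the taurine transporter TauT and had 6479 and 6100 counts in the control libraries and 3442 and 3887 in the risperidone libraries. Its level was 66.5 ± 1.80 FPKM in the control libraries and 38.4 ± 3.79 FPKM in the risperidone libraries, and it fell by 0.68 on the log2 scale (SE 0.0610, adjusted p = 3.42e-06). Slc6a8, which encodes the creatine transporter, was at 35.7 ± 0.226 FPKM in the control libraries and 34.9 ± 0.672 FPKM in the risperidone libraries. On the counts with TMM factors, edgeR gave a log2 fold change of 0.06 for Slc6a8 (95% interval -0.04 to 0.16, adjusted p = 0.254), and its sign turned to -0.03 when library size was the only scaling. Slc6a8 passed as lower on the TPM scale (-0.17, adjusted p = 0.0181) and as higher with length offsets (0.14, adjusted p = 0.0155), so no direction is given for it. Slc43a3, which encodes a purine nucleobase carrier and no amino acid transporter in the usual sense, had 4042 and 4043 counts against 4382 and 4275. It was higher by 0.19 on the log2 scale (SE 0.0455, adjusted p = 0.00339), with a value of -0.04 on the TPM scale. The call was lost there, with library size only (adjusted p = 0.0792), with limma on FPKM (0.0782 and 0.0820) and after quantile normalization (0.0865).

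The other 28 members had a mean under 1 FPKM and were not tested in the main comparison. Of these, 12 are known as kidney or kidney and gut carriers. Among the other 16, the cationic carrier Slc7a3 had 6 and 7 counts in the control libraries and 14 and 25 in the risperidone libraries. Slc6a17, a vesicular carrier of neutral amino acids in neurons, had 28 and 26 counts against 15 and 24. Slc1a3, the glutamate transporter EAAT1, had 15 counts in each control library and 14 and 11 in the risperidone libraries. The other 13 (Slc1a2, Slc1a7, Slc6a2, Slc6a4, Slc6a5, Slc6a14, Slc6a15, Slc6a16, Slc7a2, Slc7a14, Slc7a15, Slc38a8 and Slc43a1) had 0 to 6 counts in each library. At this depth no difference was detectable for them. With no filter on low values, 2 of the 28 passed as higher, Slc6a12 (log2 fold change 0.83, adjusted p = 0.0433) and Slc7a8 (3.26, adjusted p = 0.0424), the latter through the second risperidone library described next. With edgeR's filterByExpr, Slc6a12 (0.84, adjusted p = 0.0107) and Slc7a3 (1.67, adjusted p = 0.00764) did.

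Several carriers that reabsorb amino acids in the kidney tubule were raised in the second risperidone library and in no other. By the rule of at least 10 counts and 4 times the highest other library, with a 0 set to 3 counts, 6 of the 50 members qualified, beside 1.87% of all genes. None of the 50 qualified in any of the other 3 libraries. All 6 were among the 13 members listed as kidney-type: Slc1a1, Slc6a18, Slc6a19, Slc7a8, Slc7a9 and Slc7a13. The counts summed over the 13 were 67.0 and 75.1 in the control libraries, 76.8 in the first risperidone library and 481 in the second. Since 1 library carried the rise, no test was made of it.

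The counts of the 6 were as follows. Slc6a18 encodes B0AT3, a carrier of glycine and neutral amino acids of the brush border, and it had 1 count in each of 3 libraries and 76 in the second risperidone library. Slc6a19, which encodes B0AT1, the main neutral amino acid carrier of kidney and gut, had 2, 0 and 0 counts in the other libraries and 36 there. Slc7a13, which encodes a light chain for acidic amino acids and cystine in the kidney, had 0, 2 and 1 counts against 67. These 3 rows were at or near 0 in every library but 1.

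Slc1a1 encodes EAAT3, the glutamate and aspartate carrier of neurons and kidney, and it had 0, 0 and 1 counts in the other libraries and 34 in the second risperidone library. Slc7a9 encodes the light chain that pairs with rBAT in the cystine carrier of the tubule. It was listed at 0 in the other 3 libraries and at 22 counts in the second risperidone library, at least 7.29-fold higher than the limit of 3 counts per library. Slc7a8, which encodes LAT2 on the basolateral side, had 2 and 2 counts in the control libraries, 7 in the first risperidone library and 31 in the second, and so was not absent from the first.

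The remaining 7 kidney-type members were less distinct. Slc3a1, the partner of Slc7a9, has been given above. Slc7a7, which encodes y+LAT1 of the basolateral membrane, had 17.0 and 18 counts in the control libraries, 11 in the first risperidone library and 46 in the second. Slc38a3, Slc6a13 and Slc7a12 were at 0 in the other 3 libraries and had 11, 8 and 3 counts in the second risperidone library. Slc6a12, the betaine carrier, had 27 and 24 counts in the control libraries and 45 and 40 in the risperidone libraries, so both of the latter were higher. Slc36a2 had 2 counts in 1 control library and 0 elsewhere. With 2 times the highest other library as the rule, 9 members qualified (Slc3a1, Slc7a7 and Slc38a3 in addition), and with 8 times 4 did.

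The kidney markers moved with these counts. In the second risperidone library Kap, an androgen-regulated kidney transcript, had 1048 counts, the phosphate carrier Slc34a1 of the proximal tubule had 681, and Umod of the thick ascending limb had 385. The podocyte gene Nphs1 had 2 counts and the collecting duct gene Aqp2 had 3, and both were at 0 in the other libraries. In the other libraries 5 or 6 of the 16 markers were at 0, and in the second risperidone library none was. The part of kidney RNA in the transporter counts was not tested. The 15 calls described above kept their direction and their side of the threshold without this library.

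**Figure D3:**
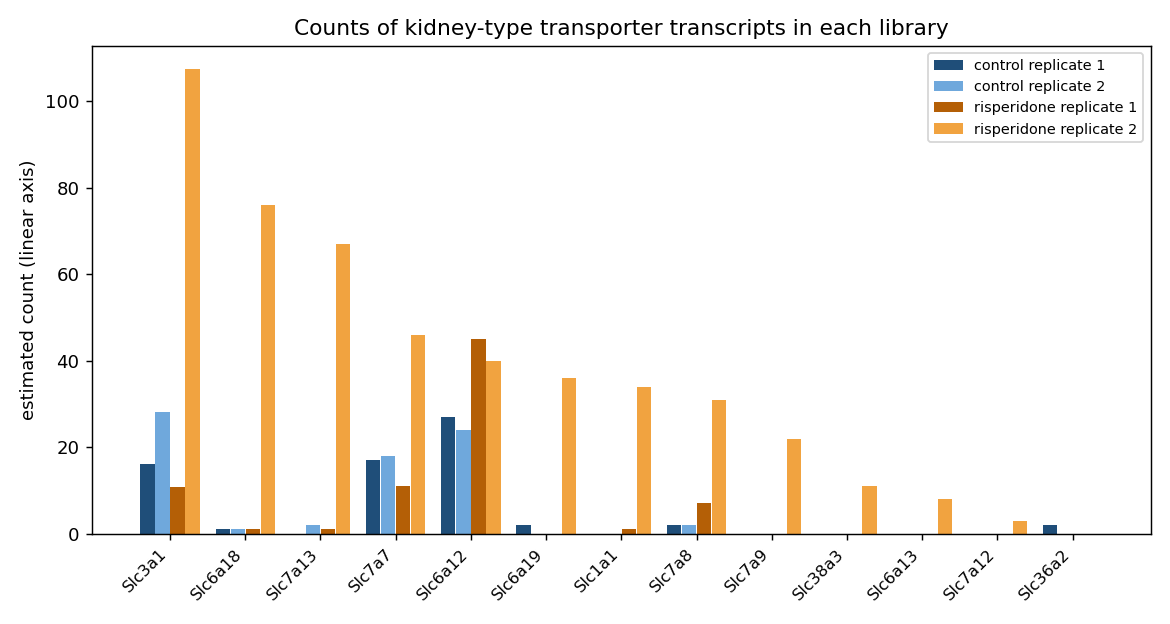
Estimated counts of the 13 kidney-type transporter transcripts in each of the 4 libraries, on a linear axis from 0; each bar is 1 library. The bars of the second risperidone library reach 107 for Slc3a1 and 76 for Slc6a18, while for Slc6a12 both risperidone libraries (45 and 40) are above the control libraries.

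Genes that work beside the transporters were counted from 3 further lists. Of 8 tested carriers and partners of other families, 2 were higher and 4 lower, with a median log2 fold change of -0.25, beside 32.1% higher and 32.2% lower over all genes tested. Without the second risperidone library 1 was higher. Slc15a2, which encodes the proton-coupled peptide transporter PEPT2, had 181 and 207 counts in the control libraries and 68 and 70 in the risperidone libraries, a log2 fold change of -1.40 (SE 0.158, adjusted p = 1.97e-05). Pqlc2, the lysosomal exporter of cationic amino acids, had 277 and 310 counts against 139 and 149 and fell by 0.93 on the log2 scale. Ctns, the lysosomal cystine exporter, had 946 and 951 counts against 652 and 669, a log2 fold change of -0.43. Cltrn encodes collectrin, which brings Slc6a18 and Slc6a19 to the tubule surface, and it had 2 and 1 counts in the control libraries, 1 in the first risperidone library and 118 in the second. It passed the filter only through that library, at 6.5 FPKM, and its log2 fold change of 5.29 (adjusted p = 0.0101) became -0.45 (adjusted p = 0.858) without that library. Slc6a20b, a proline carrier that shares reads with Slc6a20a, was also raised in the second risperidone library alone.

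Of 21 tested genes of amino acid use, 10 were higher and 4 lower, with a median log2 fold change of 0.16, beside 32.1% higher and 32.2% lower over all genes tested. With library size as the only scaling 4 were higher and 5 lower, and on the TPM scale 2 were higher and 8 lower. Glul, which encodes glutamine synthetase, had 12428 and 12121 counts in the control libraries and 8812 and 8710 in the risperidone libraries, a log2 fold change of -0.39 (SE 0.0465, adjusted p = 2.74e-05). Asns, which encodes asparagine synthetase and is a classical ATF4 target, had 5142 and 5358 counts against 5769 and 5223, which overlap, and its log2 fold change of 0.16 (adjusted p = 0.0304) was -0.08 on the TPM scale. The call of Asns was also lost with library size only (adjusted p = 0.328), with no filter (0.113), with limma on FPKM or quantile-normalized values (0.396 to 0.832), without the first control library (0.235) and without the first risperidone library (0.138). Glul and Asns were chosen for mention after their values were seen. Among genes of branched-chain amino acid breakdown, Bcat1, the cytosolic aminotransferase, had 161 and 169 counts against 247 and 252 and was higher by 0.69, a call that was lost on the TPM scale (0.35, adjusted p = 0.0670). Dbt and Bckdhb, subunits of the branched-chain ketoacid dehydrogenase, fell by 0.94 (127 and 142 counts against 54 and 77) and by 0.56 (147 and 167 against 103 and 96) on the log2 scale. The call of Bckdhb was lost without the second control library (adjusted p = 0.0997). Ass1, the argininosuccinate synthetase of the arginine pathway, had 54 counts in each control library, 89 in the first risperidone library and 513 in the second. Its log2 fold change of 2.57 (adjusted p = 0.00339) was 0.81 without the latter. Over the alternatives the adjusted p of Ass1 reached 0.0672, so the call did not hold in all of them.

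Of 15 tested genes of amino acid sensing and the response to it, 7 were higher and 6 lower, beside 64.3% of all genes tested that passed in either direction. The number higher was 3 on the TPM scale. Ddit3, which encodes the stress factor CHOP, had 1443 and 1485 counts in the control libraries and 6229 and 4737 in the risperidone libraries, a 3.99-fold rise (log2 SE 0.103, adjusted p = 9.04e-08). Chac1, which encodes a glutathione-degrading enzyme, was higher by 0.91, with 98 and 89 counts against 173 and 156. Sesn2, which encodes a leucine sensor upstream of mTORC1, had 874 and 883 counts against 281 and 296 and fell by 1.51 on the log2 scale. Ddit4, which encodes the mTORC1 inhibitor REDD1, had 2485 and 2361 counts against 567 and 626 and fell by 1.93. Ddit3 and Chac1 were thus raised and Ddit4 and Sesn2 lowered in both risperidone libraries, and all 4 are known to be induced through ATF4 in other settings. Atf4, chosen for mention after its values were seen, had 2052 counts in each control library and 2500 and 2123 in the risperidone libraries. Its log2 fold change was 0.27 (SE 0.0667, adjusted p = 0.00485), and it was -0.01 and not past the threshold on the TPM scale. The call was also lost with no filter (adjusted p = 0.0561), with limma on FPKM (0.154) and after quantile normalization (0.195), and the value was 0.15 without the first risperidone library.

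**Figure D4:**
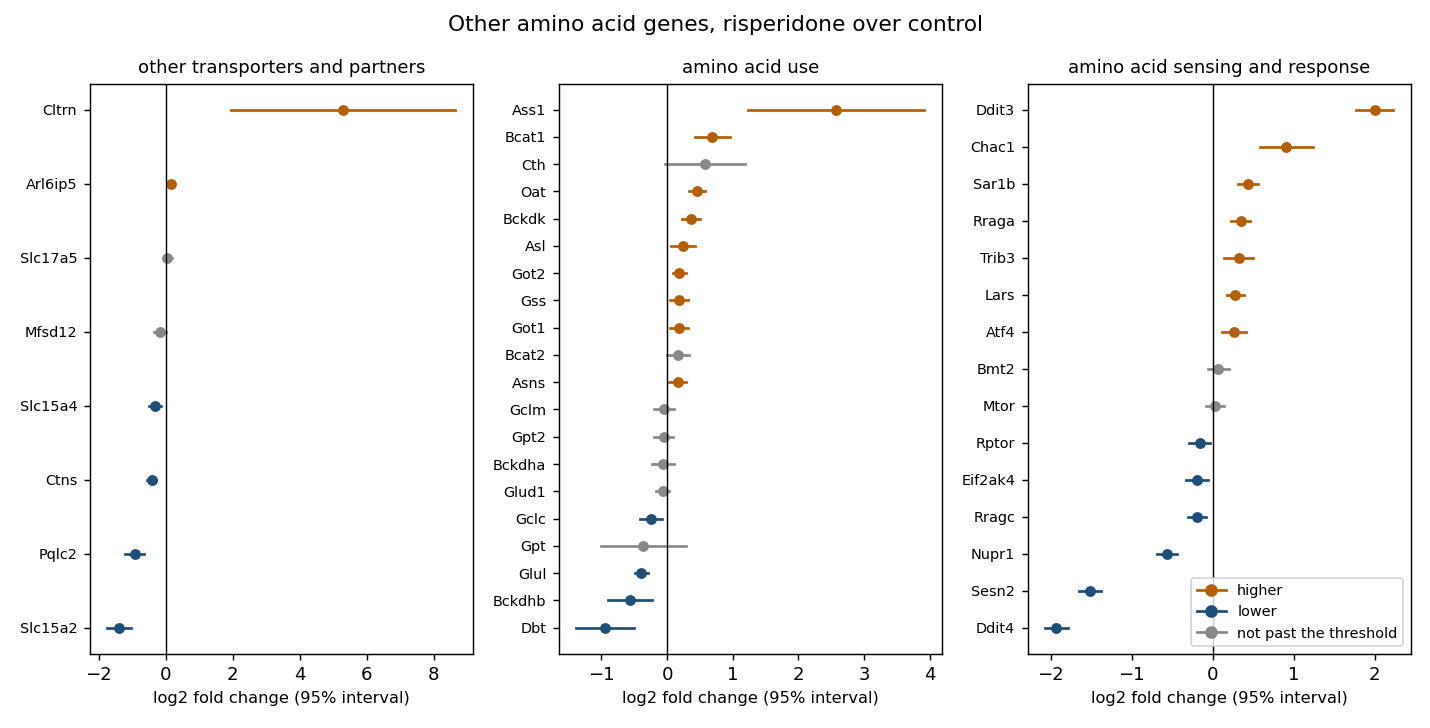
Log2 fold change, risperidone over control, with the 95% interval from edgeR, of tested genes of 3 further lists, 1 of them left out: other transporters and partners, amino acid use, and amino acid sensing and response. Cltrn (5.29) and Ass1 (2.57) have wide intervals, with the second risperidone library far above the first, while Ddit3 (3.99-fold higher) and Ddit4 (-1.93) stand apart with narrow ones.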

How the data were processed

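The 4 mRNA libraries were sequenced on an MGISEQ-2000. Per the study's methods, the authors removed adaptor, poly-N and low-quality reads, mapped the rest and calculated FPKM on the DC.TOM platform. The submitters' processing notes name Bowtie2, RSEM, DESeq2 and GRCm38.p6 without roles or versions, and strand and the gene annotation are not given in the sources used here. The deposited table holds estimated counts of reads per gene as the authors made them, and some of them were not whole, Slc3a1, Slc3a2, Slc7a7, Slc7a11 and Slc7a14 among them, which can mean that reads were shared between genes. The deposited FPKM and TPM values are scaled per length and per library by the authors. The extraction text in the labels speaks of retinas and the tissue is given as embryo tissue. Of 8 retina markers 5 had a row, and Rom1 had 52 and 65 counts in the control libraries and 32 and 27 in the risperidone libraries.

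Estimated counts were rounded and tested with edgeR 4.0.16 (quasi-likelihood F-test, TMM factors, two-sided) in R 4.3.3 on the 10243 genes averaging 1 FPKM or more over the 4 libraries, with Benjamini-Hochberg adjustment and a threshold of 0.05. DESeq2 1.42.0 and limma 3.58.1 served as alternatives. Data simulated for this comparison held 10243 genes, 200 of them changed, all drawn with the same relative spread. In the real data, by contrast, 64.3% of genes passed. On the simulated data edgeR recovered 99% of 2-fold and 93% of 1.5-fold changes with 6 false calls. On simulated data with an added trend with transcript length, edgeR made 339 false calls without length offsets, as in the main test, and 8 with them. With length offsets, 7 members were called higher instead of 4. Each library held 15883712 or more counts, and the 2 libraries of a group differed beyond counting error in 12.4% (control) and 23.5% (risperidone) of genes, where 5% would by chance alone. Nothing states that the pools came from separate experiments, so p-values measure only the spread between these pools. The replicate numbers were not found to pair the libraries.

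The members and lists were chosen with earlier results of these data known. Described in full were members past the threshold that changed by 0.5 or more on the log2 scale or averaged 5 FPKM or more, kidney-type members and those raised in the second risperidone library alone, and up to 4 changed genes of each further list. Genes that share reads with close copies, such as Slc6a20a and Slc6a20b, are uncertain. A few genes of the further lists and marker lists are counted but not reported by name here.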

Additional observations from a re-analysis of the deposited data

How the results depend on the processing

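The 15 calls were recomputed with other normalizations, filters, units, tools, length offsets and a library left out. Of 238 values, 224 kept direction and side of the threshold, 12 lost the threshold and 2 reversed, and 11 of the 15 genes kept both throughout. The number of members higher was 7 with filterByExpr and with length offsets, 1 with limma on log2(FPKM + 1), log2(FPKM + 0.1) or log2(TPM + 1), and 2 with quantile normalization, against 4. On the TPM scale, where the median of all genes was -0.22, reversed values were -0.056 for Slc38a1, -0.034 for Slc38a10, -0.095 for Slc38a4, -0.11 for Slc38a9, -0.042 for Slc43a3, -0.17 for Slc6a8, -0.082 for Asns and -0.0078 for Atf4. With library size only they were -0.079 for Slc38a9 and -0.031 for Slc6a8, and with limma on log2(FPKM + 1) and log2(FPKM + 0.1) they were -0.032 and -0.033 for Slc6a8. Across the 3 further lists, 19 were higher and 14 lower. Higher counts became 12 with library size only and with no filter, 9 and 10 with limma on FPKM (pseudocounts 1 and 0.1) and 5 on TPM. The cause was not tested.

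Leaving out each library in turn gave 4 to 6 members higher and 10 to 13 lower, and 14 to 18 and 9 to 14 genes of the 3 lists. The lowest lower count, 9, came without the second control library. Without a library, ranges ran from -0.011 to 0.041 for Slc38a9, from -0.90 to 2.37 for Slc3a1, from -0.13 to 0.057 for Slc3a2 and from -0.45 to 6.28 for Cltrn. With the replicate block, 6 members were higher and 11 lower, and the correlation of replicate differences between the groups was -0.0622. The 6 included Slc3a1 (adjusted p = 2.7e-05) and Slc38a4 (adjusted p = 0.0306). The value of Slc3a1 rests on the second risperidone library, through which alone it passed the filter. Slc38a4 also passed with filterByExpr (0.0445), length offsets (0.0115) and without the first risperidone library (0.00305). Counts of members raised in the second risperidone library ranged from 4 to 9. At this depth no difference could be seen for members of 0 to 6 counts.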

Other observations

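Carriers known from lysosomes were spread over the families and were gathered after their values were seen, so they get no test as a list. Slc36a1, Pqlc2, Ctns and Slc15a4 were lower in the risperidone libraries, the last with 392 and 387 counts in the control libraries and 276 and 307 in the risperidone libraries (log2 fold change -0.32, adjusted p = 0.00674). Slc38a7, Slc38a9, Slc17a5, which encodes the sialic acid exporter, and Mfsd12, which is needed for cystine import into lysosomes, did not pass the threshold, at -0.15, 0.01, 0.05 and -0.19, although Slc38a7 passed as lower in 6 of the alternatives, such as the TPM scale (-0.39, adjusted p = 8.52e-04).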
